A study of Mus musculus with 4 samples.

Results

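The interleukin-1 (IL-1) and interleukin-33 (IL-33) axis was examined in fibroblasts taken out of mouse mammary tumours, through 10 genes chosen by symbol: the ligand genes Il33, Il1a and Il1b, the antagonist gene Il1rn, the receptor genes Il1rl1, Il1r1 and Il1rap, and the adaptor and kinase genes Myd88, Irak1 and Irak2. All 10 were found among the 22456 genes of the table, and 9 of them reached the level needed for a test, a mean over the libraries of 3.32 (log2 of 10), as did 14548 genes of the table. The genes were proposed with results of the comparison of GSK with DMSO already known, so their differences between these groups are given as descriptions, with standard errors and no p-values.

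The GSK group comprised fibroblasts of tumours grown from 4T1 cells that had been kept for 5 days in 5 µM of the compound GSK269962A before injection. The DMSO group comprised fibroblasts of tumours grown from 4T1 cells kept in the solvent DMSO. In both groups 4T1 cells, a transplantable mammary carcinoma line, were placed in the mammary fat pad of Balb/cAnN mice, the fibroblasts are reported at day 8 after injection, and the compound was given to the cancer cells and not, per the labels, to the mouse. Each group has 2 libraries, and the labels give neither the age of the mice nor whether the libraries of a group came from separate animals, and any p-value here therefore reflects the spread among these libraries alone, which may be technical. The fibroblasts are the cells left unbound after immune, endothelial, epithelial and cancer cells had been removed, so they may hold other mesenchymal cells.

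Both signalling arms work in the same way. IL-1 alpha and IL-1 beta bind the receptor encoded by Il1r1 and IL-33 binds ST2, the receptor encoded by Il1rl1, and either pair then recruits the shared accessory chain encoded by Il1rap. The assembled receptors signal through the adaptor MyD88 to the IRAK kinases, and from there to NF-kB and MAP kinases. IL-1 alpha and IL-33 are stored in cells and released on damage, whereas IL-1 beta is secreted after cleavage by caspase-1, and the Il1rn product occupies the IL-1 receptor without signalling. In tumour stroma, fibroblasts are known to respond to IL-1 with cytokines and chemokines and to be a source of IL-33. Il1rl1 was originally found as a gene induced by serum in Balb/c 3T3 fibroblasts, and it is read from a distal start, used in mast cells, and a proximal start, used in fibroblasts.

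The 2 RefSeq start regions of Il1rl1 are shown because the gene level measured here sums both. Each window covers 250 bases before to 50 bases from the start site on, in build GRCm38.p6, and reads 5′ to 3′ on the plus strand. Capitals mark matches, on either strand, to an AP-1 site (TGANTCA), to a loose NF-kB site (GGG, any 5 bases, then CC) or to a TATA box (TATAAA), the last chosen after the sequences had been seen. The distal window lies at chr1:40429320-40429619 and the proximal window at chr1:40439379-40439678, with 10059 bases between the start sites.
Il1rl1 distal: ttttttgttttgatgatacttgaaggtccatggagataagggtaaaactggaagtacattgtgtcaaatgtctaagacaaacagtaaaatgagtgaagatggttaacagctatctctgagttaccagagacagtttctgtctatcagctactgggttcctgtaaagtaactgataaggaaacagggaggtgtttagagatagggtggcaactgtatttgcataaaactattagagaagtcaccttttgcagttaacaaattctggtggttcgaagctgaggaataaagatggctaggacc
Il1rl1 proximal: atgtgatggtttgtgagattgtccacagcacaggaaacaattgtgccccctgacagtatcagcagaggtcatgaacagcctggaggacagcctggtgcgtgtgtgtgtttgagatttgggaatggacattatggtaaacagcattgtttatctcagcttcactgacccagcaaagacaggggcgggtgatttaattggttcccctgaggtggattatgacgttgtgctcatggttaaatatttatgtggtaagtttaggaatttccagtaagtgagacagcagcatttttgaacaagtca
Neither Il1rl1 window held any of these motifs, which says only that these letters are not in these 300 bases. The annotation (GENCODE M21) lists coding transcripts of 567 codons, the length of the membrane receptor, and of 337 codons, the length of the secreted form that acts as a decoy for IL-33. Both kinds share exons, and the deposited gene value does not separate them.

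The windows of Il33 and of Il1a are shown for comparison, as those of the ligand gene with the highest level here and of the ligand gene with an AP-1 match next to its start. Il33 has a distal window at chr19:29924863-29925162 and a proximal window at chr19:29945540-29945839, both on the plus strand. The Il1a window lies at chr2:129309923-129310222 on the minus strand.
Il33 distal: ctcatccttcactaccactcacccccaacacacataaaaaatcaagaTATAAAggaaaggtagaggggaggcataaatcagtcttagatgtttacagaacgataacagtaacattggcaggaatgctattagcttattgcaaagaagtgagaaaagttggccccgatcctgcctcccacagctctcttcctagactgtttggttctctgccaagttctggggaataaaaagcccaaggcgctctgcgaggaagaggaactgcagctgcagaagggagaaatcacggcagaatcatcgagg
Il33 proximal: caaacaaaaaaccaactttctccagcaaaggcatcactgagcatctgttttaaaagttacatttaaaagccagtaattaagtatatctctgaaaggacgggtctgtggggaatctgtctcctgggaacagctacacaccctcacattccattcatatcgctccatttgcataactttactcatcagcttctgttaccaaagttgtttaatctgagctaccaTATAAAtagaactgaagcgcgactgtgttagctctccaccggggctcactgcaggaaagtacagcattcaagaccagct
Il1a: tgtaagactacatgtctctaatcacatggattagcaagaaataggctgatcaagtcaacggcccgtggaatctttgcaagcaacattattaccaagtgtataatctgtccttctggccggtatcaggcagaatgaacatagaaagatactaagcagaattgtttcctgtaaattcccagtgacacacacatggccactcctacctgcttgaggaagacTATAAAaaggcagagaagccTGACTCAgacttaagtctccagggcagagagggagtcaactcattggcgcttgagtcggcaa
In the proximal Il33 window the TATA match begins at position -29 from the start site, and in the Il1a window it begins at -32, with the AP-1 match TGACTCA at -12. In the distal Il33 window the TATA match lies at -203. Over all 16 windows of the 10 genes, 2 held an AP-1 match (Il1a and Il1rn), 8 a loose NF-kB match and 6 a TATA match. Of the 32851 windows of this length in the RefSeq table, 7.81% held the AP-1 motif, 50.8% the loose NF-kB motif and 13.6% the TATA motif. No motif was found in any Il33 window other than these TATA matches.

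Fibroblast markers were high in all 4 libraries: the 10 markers averaged 15.25 to 15.29 in GSK libraries and 15.29 to 15.34 in DMSO libraries (log2). Of the markers in the table, 6 of 10 myeloid, 4 of 7 endothelial and 3 of 7 epithelial lay below the filter. The others passed it, among them Csf1r, Tek and Krt19 with means of 8.28, 7.64 and 8.82, as did all 8 pericyte and smooth muscle markers. Of the 14548 genes tested, 41 had an adjusted p under 0.05 in limma, 22 higher and 19 lower in GSK. The depth of the libraries is unknown, since no read counts were used.

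Levels between genes were compared per length, as the linear value (2 to the power of the deposited log2 value) per kilobase of merged exons, over all 4 libraries. Il33 stood first with 2645 ± 851 (mean ± SD of 4 libraries), a level that 98.3% of the annotated genes lay below. Il1r1, the signalling IL-1 receptor, followed with 1072 ± 56.3, Myd88 with 522 ± 15.3 and Irak1 with 383 ± 8.84. These 4 genes kept this order in each library, since their ranges over the libraries did not overlap. Irak2 (102 ± 11.3), Il1rap (93.4 ± 12.4) and Il1rl1 (92.6 ± 28.6) formed a lower tier whose neighbouring ranges overlapped, so these 3 genes could not be ordered over all 4 libraries. Il1rl1 was the lowest of them in both GSK libraries, with 66.1 and 69.6, and the highest in both DMSO libraries, with 118 and 116. Their order also depended on the length used: with the longest transcript as the length, Il1rap stood at 235, above Irak2 at 141 and Il1rl1 at 120. Il1a followed with 36.3 ± 3.37, Il1b with 9.28 ± 0.193 and Il1rn with 1.35 ± 0.0235, again with no overlap between neighbours. The ligand that these cells carried at high level was Il33, whose level per kilobase was 43.1 to 112 times that of Il1a in the same library.

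**Figure D1:**
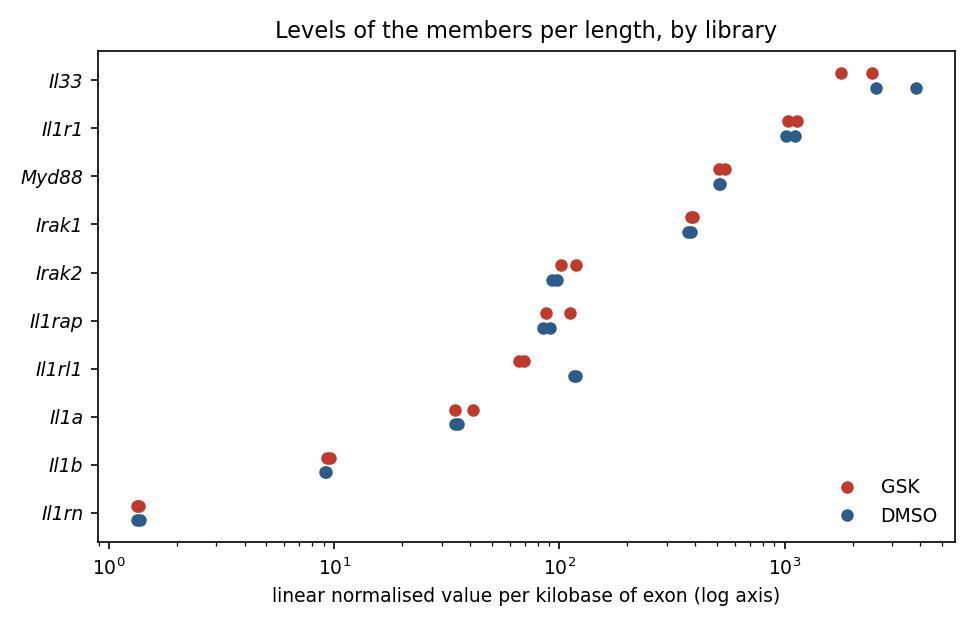
Linear normalised value per kilobase of exon (log axis) of the 10 genes, with 1 point per library, GSK above DMSO in each row. Il33 and Il1r1 lie at the top, Il1a, Il1b and Il1rn at the bottom, and in the tier between them the ranges of Irak2, Il1rap and Il1rl1 overlap.

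Between the groups, the gene that stood apart was the IL-33 receptor gene. Il1rl1 and its ligand gene Il33 were lower in both GSK libraries than in either DMSO library, Irak2 and Il1b were marginally higher in both GSK libraries, and the values of the other 6 genes overlapped between the groups. Of the 9 members tested, 1, Il1rl1, had an adjusted p under 0.05, and 4 had groups that did not overlap. Over all genes tested, 0.282% were called and 48.6% had groups that did not overlap, 24.1% with GSK above and 24.5% with GSK below. The call of Il1rl1 depended on the filter: without it limma called 0 members and 1 gene over all. Nothing is read from the members' counts, since the contrast was known when they were chosen.

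**Figure D2:**
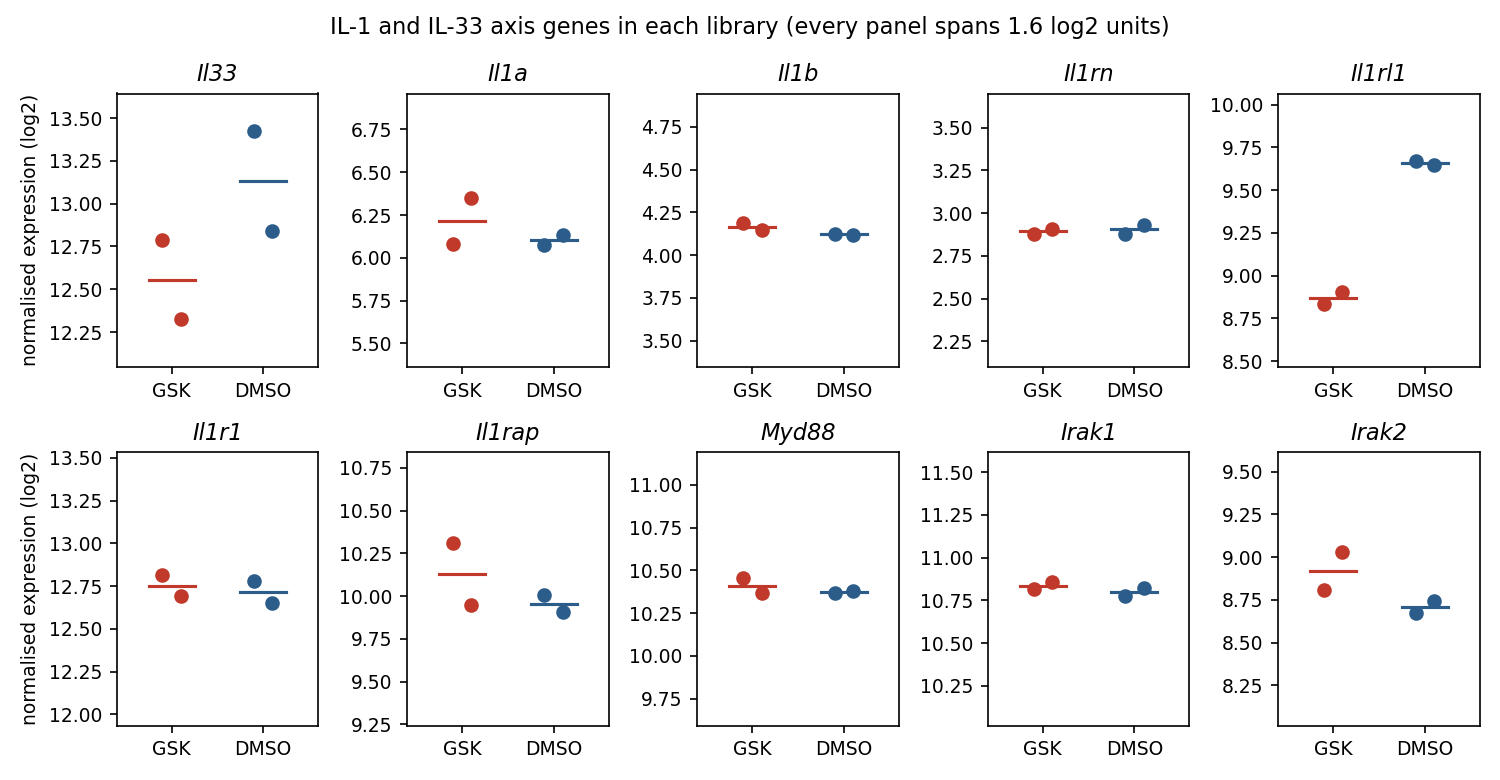
Normalised expression (log2) of each gene in GSK libraries (left, red) and DMSO libraries (right, blue), with points for libraries and lines for group means. Il1rl1 shows a gap many times wider than the spread of either group. The spread of Il33 within each group is wider than the gap between the groups. In both groups Il33 is higher in library 1 than in library 2.

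Il1rl1 (ENSMUSG00000026069, GRCm38 chromosome 1, 40429570 to 40465415, plus strand) had 8.83 and 8.91 (log2) in GSK libraries 1 and 2, against 9.67 and 9.65 in DMSO libraries 1 and 2. The groups were separated by 0.74, while the libraries of a group differed by 0.07 in GSK and 0.02 in DMSO. The difference was -0.79 ± 0.05 (limma's moderated SE), 1.73-fold lower in GSK, and lay between -0.83 and -0.75 when each library was left out in turn. In bulk RNA, fewer cells of a type that carries the transcript and less RNA per cell cannot be told apart.

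The other receptor chains did not follow it. Il1r1 (ENSMUSG00000026072, chromosome 1, 40225080 to 40317257) had 12.81 and 12.69 in GSK libraries, against 12.78 and 12.65 in DMSO libraries, a difference of 0.03 ± 0.07 with overlapping groups. Il1rap (ENSMUSG00000022514, chromosome 16, 26581704 to 26730117), the chain that both receptors share, had 10.31 and 9.95 in GSK libraries, against 10.01 and 9.91 in DMSO libraries. Its difference of 0.17 ± 0.11 rested on GSK library 1, and was -0.01 without that library. Relative to Il1r1 in the same library, the level of Il1rl1 per kilobase was 5.84% and 6.70% in GSK libraries and 10.7% and 11.5% in DMSO libraries. Relative to Il1rap it was 59.2% and 79.95% in GSK libraries and 131% and 138% in DMSO libraries. The size of this ratio depends on the length used. With the longest transcript as the length, the means over the 4 libraries were 120 for Il1rl1 and 235 for Il1rap.

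Il1r1 and Il1rl1 belong to a cluster of receptor genes on chromosome 1, all on the plus strand, and its members were present at very different levels. Il1rl2, the IL-36 receptor gene between them, had 10.69 and 10.75 in GSK libraries, against 10.86 and 10.78 in DMSO libraries (difference -0.10 ± 0.05, limma adjusted p = 0.363). Il1r2, the decoy receptor for IL-1 at the start of the cluster, had 6.34 and 6.31 in GSK libraries, against 6.47 and 6.45 in DMSO libraries (difference -0.13 ± 0.04, limma adjusted p = 0.191). Il18r1, which begins 136 bases past the end of Il1rl1, was below the filter at 2.14 to 2.15 in GSK libraries and 2.16 in both DMSO libraries. Il18rap, the accessory chain of the IL-18 receptor, had 6.25 and 6.34 in GSK libraries, against 6.28 and 6.41 in DMSO libraries. None of these 3 tested receptors passed the threshold in limma, 1 had an unadjusted p under 0.05, as had 16.0% of all genes tested (2330 of 14548), and Sigirr, an inhibitory receptor, lay at 0.29 to 0.30 in the 4 libraries.

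Among the ligands, Il33 (ENSMUSG00000024810, chromosome 19, 29925114 to 29960718) had 12.79 and 12.33 in GSK libraries, against 13.43 and 12.84 in DMSO libraries. Both GSK libraries lay lower, but GSK library 1 and DMSO library 2 were only 0.05 apart, while libraries of a group differed by 0.46 in GSK and 0.59 in DMSO. The difference was -0.58 ± 0.22, 1.49-fold lower in GSK. Leaving out a single library moved this difference to -0.28 (DMSO library 1), -0.35 (GSK library 2), -0.81 (GSK library 1) or -0.87 (DMSO library 2). In each group library 1 lay above library 2, and the library numbers are shared between the groups. Each of these fits leaves the numbers unbalanced, and what a number marks is not given. They therefore cannot tell whether the size rests on single libraries or on a spread shared by same-numbered libraries.

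The IL-1 genes lay far below Il33. Per kilobase, 55.4% of the annotated genes lay below Il1a, 40.8% below Il1b and 19.4% below Il1rn. Il1a (ENSMUSG00000027399, chromosome 2, 129299610 to 129309972) had 6.08 and 6.35 in GSK libraries, against 6.08 and 6.13 in DMSO libraries, a difference of 0.11 ± 0.09 that was -0.02 without GSK library 2. Il1b (ENSMUSG00000027398, chromosome 2, 129364570 to 129371139) had 4.19 and 4.15 in GSK libraries, against 4.13 and 4.12 in DMSO libraries, a difference of 0.04 ± 0.03. Il1rn (ENSMUSG00000026981, chromosome 2, 24336853 to 24351494) was below the filter, with 2.88 and 2.91 in GSK libraries, against 2.88 and 2.93 in DMSO libraries. The deposited values behave like shrunken logarithms, so differences at low levels, as of Il1b and Il1rn, may be understated.

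Of the adaptor and kinases close to the receptors, Myd88 and Irak1 varied little. Myd88 (ENSMUSG00000032508, chromosome 9, 119335934 to 119341411) had 10.45 and 10.37 in GSK libraries, against 10.37 and 10.38 in DMSO libraries, a difference of 0.04 ± 0.05. Irak1 (ENSMUSG00000031392, chromosome X, 74013914 to 74023918), the kinase that couples MyD88 to TRAF6, had 10.81 and 10.86 in GSK libraries, against 10.78 and 10.82 in DMSO libraries, a difference of 0.04 ± 0.04. Both genes had groups that overlapped. Irak2 (ENSMUSG00000060477, chromosome 6, 113638467 to 113695026), which sustains signalling after Irak1, had 8.81 and 9.03 in GSK libraries, against 8.68 and 8.74 in DMSO libraries. Its groups were 0.07 apart, less than the 0.22 between the GSK libraries, and the difference of 0.21 ± 0.08 was 0.10 without GSK library 2 and 0.32 without GSK library 1.

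**Figure D3:**
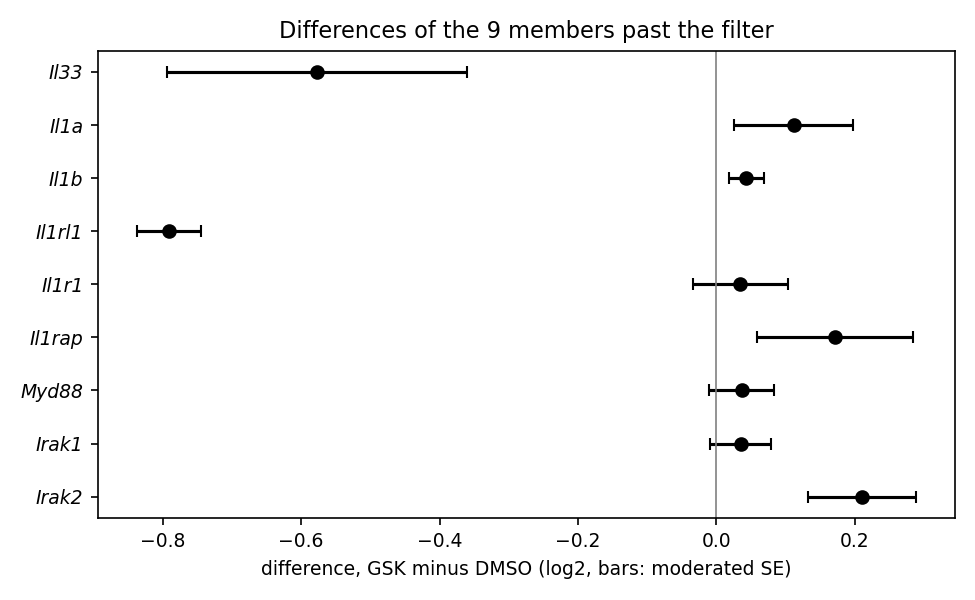
Difference between GSK and DMSO (log2, GSK minus DMSO) of the 9 genes past the filter, with limma's moderated SE as bars. Il1rl1 lies at -0.79 with a short bar, Il33 at -0.58 with a long one, and the other 7 genes between 0.03 and 0.21.

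Some of these genes share exons with a neighbour on the opposite strand, and whether counting used the strand is not given in the sources used here. Myd88 overlaps Acaa1a, which had a mean of 9.37 over the 4 libraries, beside 10.39 for Myd88. The partners of Il1a (Gm14023), Il1rap (Gm20319) and Irak2 (Gm43963) were far lower, at 1.79, 1.16 and 1.18. Il1b overlaps the antisense gene Il1bos, which was not found by symbol among the genes of the table. Il1rl1, Il33, Il1r1 and Il1rn have no exon overlap with another annotated gene.

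The genes whose profile over the 4 libraries was nearest to that of Il1rl1 were picked by the root mean square distance between profiles centred on each gene's mean, among 11087 genes whose mean reached 5.64 (log2 of 50), leaving out predicted genes and pseudogenes. They were Dusp10, a phosphatase of stress-activated kinases, at a distance of 0.04 (log2), Ptgs2, the inducible prostaglandin synthase, at 0.07, Angptl4, an inhibitor of lipoprotein lipase, at 0.08, and Lif, a cytokine of the IL-6 family, at 0.09. Hspa1b, an inducible heat shock gene, was also at 0.09, and its values are uncertain because of its near-identical copy Hspa1a. The nearest to Il33 were Rdh10, a retinol dehydrogenase, at 0.04, Cav1, the caveolin gene, at 0.05, Prg4, which encodes lubricin, and the chemokine genes Cxcl3 and Cxcl5, at 0.06 to 0.08. Each set was picked for its likeness to its gene in these libraries, so the shapes of the sets repeat those of Il1rl1 and Il33. The first differs more between the groups than within them, whereas the second is highest in DMSO library 1 and lowest in GSK library 2. Over 4 libraries such a likeness is a description only.

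**Figure D4:**
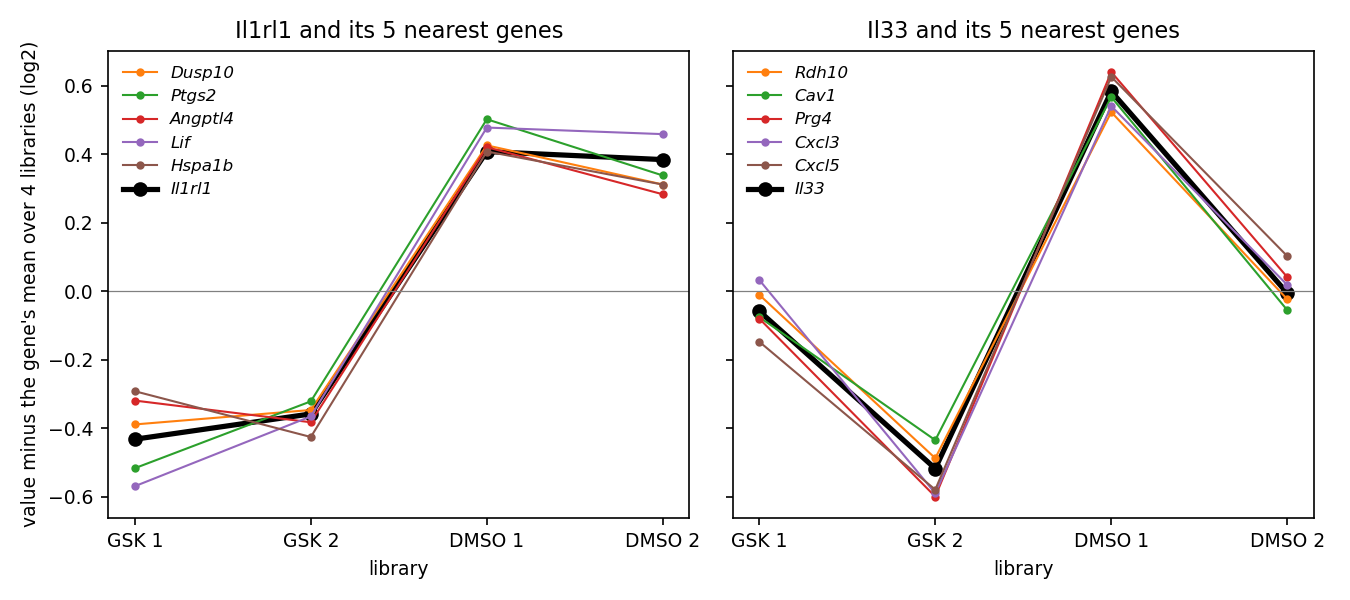
Value minus the gene's mean over the 4 libraries (log2) for Il1rl1 (left, black) and Il33 (right, black) with the 5 nearest genes of each. Il1rl1 and its neighbours fall into a low pair of GSK libraries and a high pair of DMSO libraries, while Il33 and its neighbours peak in DMSO library 1 and are lowest in GSK library 2.

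Cells that carry ST2 or make IL-33 could add to these values, so their markers are given beside them, with linear levels summed over all markers of a class in the table. Of 8 mast cell markers, 2 passed the filter (Kit and Hdc), and Mcpt4 lay near the floor of the table at -0.99. Their summed linear level was 138 to 158 in GSK libraries and 144 to 170 in DMSO libraries, mostly from Hdc (mean 7.06). The other mast cell markers, Cpa3, Tpsb2, Cma1, Ms4a2 and Fcer1a, were not found by symbol among the genes of the table. Of 10 markers of group 2 innate lymphoid and T cells, 2 passed (Cd3e and Gata3), with sums of 475 to 511 in GSK libraries and 508 to 635 in DMSO libraries. These sums are mostly Cd3e, with a mean of 8.62, while Cd3g had a mean of -0.43. Il5 and Klrg1 lay near the floor, with means of -0.986 and -0.995. Of 10 myeloid markers 4 passed, with sums of 350 to 388 in GSK libraries and 380 to 406 in DMSO libraries, mostly from Csf1r (mean 8.28). Of 7 endothelial markers 3 passed, with sums of 250 to 272 in GSK libraries and 269 to 285 in DMSO libraries, mostly from Tek (mean 7.64). Of 8 epithelial and 4T1 markers 4 passed, with sums of 454 to 520 in GSK libraries and 566 to 591 in DMSO libraries, which did not overlap. The epithelial sum is mostly Krt19, with a difference of -0.29. Krt18 and Krt8, at far lower levels, also lay lower in both GSK libraries, with differences of -0.07 and -0.04. Krt7 overlapped between the groups, and Epcam, Cdh1 and Krt14 lay below the filter. All 8 pericyte and smooth muscle markers passed, with sums of 20538 to 20631 in GSK libraries and 15540 to 18863 in DMSO libraries, without overlap and in the other direction. The markers themselves were mixed: 4 of the 8 lay above DMSO in both GSK libraries, among them Rgs5, the most abundant, while Kcnj8 and Abcc9 lay below, with differences of -0.21 and -0.12. Early response and dissociation genes react to serum, stress and tissue digestion, and 13 of 15 lay lower in both GSK libraries, beside 24.5% of all genes tested, with a median difference of -0.44. The 15 genes summed to 189928 to 223966 in GSK libraries and 255178 to 275048 in DMSO libraries, with 2 of them called lower (beside 0.131% of all genes tested), Hspa1a and Hspa1b, whose reads cannot be told apart with certainty. The part of any of these in the difference of Il1rl1 or Il33 was not tested.

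Of the other genes of the pathway, none outside the members passed the threshold at the receptor or kinase level. Of 18 signalling genes from the receptor complex to the IKK kinases, limma called none, 3 had an unadjusted p under 0.05, beside 16.0% of all genes tested, and their median difference was 0.01, beside -0.0007 over all genes tested. Irak3, which encodes IRAK-M, an inhibitor of IRAK signalling, had 9.01 and 9.13 in GSK libraries, against 9.60 and 9.41 in DMSO libraries, a difference of -0.43 ± 0.07 (limma adjusted p = 0.0703). It was called lower without DMSO library 2, with a limma adjusted p of 0.0321, and not without any of the other 3 libraries, where the limma adjusted p was 0.107 to 0.218. Over these 4 fits its difference ran from -0.52 to -0.34. Map3k8, a kinase that couples IKK to ERK, was at -0.22 ± 0.07 (limma adjusted p = 0.211) and Map3k3 at -0.12 ± 0.05 (0.268). Peli3 was at 0.10 ± 0.05 (limma adjusted p = 0.357). Traf6, Tollip, Irak4 and Map3k7, chosen after their values were seen, had differences between -0.02 and 0.02.

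The genes for ligand maturation and release also showed no call by limma: none of 12 tested passed, 2 had an unadjusted p under 0.05, again beside 16.0% of all genes tested, and the median difference was -0.0014. Capn2, a calpain protease subunit, had 12.29 and 12.25 in GSK libraries, against 12.57 and 12.46 in DMSO libraries, a difference of -0.25 ± 0.05 (limma adjusted p = 0.113). Nlrp3, the sensor of the inflammasome that activates caspase-1, was low and had 4.78 and 4.83 in GSK libraries, against 4.97 and 4.91 in DMSO libraries, a difference of -0.14 ± 0.04 (limma adjusted p = 0.146). S100a13, which takes part in the release of IL-1 alpha, was at -0.10 ± 0.05 (limma adjusted p = 0.348) and Gsdme, a gasdermin, at -0.09 ± 0.05 (0.406). Of other IL-1 family ligands and binding proteins, Il18bp, which neutralises IL-18, was at -0.11 ± 0.05 (limma adjusted p = 0.365) and Il18 at -0.07 ± 0.04 (0.403).

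Genes known to be induced by IL-1 in fibroblasts were listed, and the list was drawn up with results of these data known. IL-1 signalling itself was not measured, and the part of IL-1 in the values of these genes was not tested. All 36 were tested, 2 were called higher in GSK and 3 lower by limma, beside 0.151% and 0.131% of all genes tested. Both GSK libraries lay below both DMSO libraries in 23 of the 36, beside 24.5% of all genes tested. The groups overlapped in 9 of the 36, beside 7474 of the 14548 genes tested. Of these 9, Nfkb2, Relb, Ptges, Csf1, Il11 and C3 had differences between -0.07 and 0.02. Birc3, Sod2 and Nos2 had -0.15, -0.19 and -0.57. The median difference of the 36 genes was -0.42. The median was -0.24 without DMSO library 1, where no gene of the list was called. The early response genes, with a median difference of -0.44, and the summed levels of Krt19 with the other epithelial markers and of the pericyte markers differed between the groups in the same libraries, and their part in the differences of the response genes was not tested.

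Those called lower were Lif, with 10.85 and 11.05 in GSK libraries, against 11.89 and 11.87 in DMSO libraries (limma adjusted p = 0.0199), Tnfaip3, a feedback inhibitor of NF-kB, with 12.91 and 12.64 in GSK libraries, against 13.75 and 13.61 in DMSO libraries (0.0374), and Ptgs2, with 12.43 and 12.63 in GSK libraries, against 13.45 and 13.29 in DMSO libraries (0.0364). Those called higher were the metalloproteinase genes Mmp10, with 11.93 and 11.52 in GSK libraries, against 10.29 and 10.48 in DMSO libraries (limma adjusted p = 0.0330), and Mmp13, with 13.65 and 14.23 in GSK libraries, against 11.87 and 12.33 in DMSO libraries (0.0460). Other genes of the list, chosen here after their values were seen, did not pass the threshold. Cxcl1, Cxcl2, Ccl2 and Ccl7, chemokine genes that draw in neutrophils or monocytes, had differences between -0.85 and -0.54, and Il6 had -0.70 ± 0.15. Mmp9, a gelatinase gene, had 1.14 ± 0.24, with both GSK libraries above both DMSO libraries, and Mmp3 had 0.11 ± 0.05. None of the 5 was called without DMSO library 1, where their limma adjusted p ran from 0.0565 to 0.111.

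**Figure D5:**
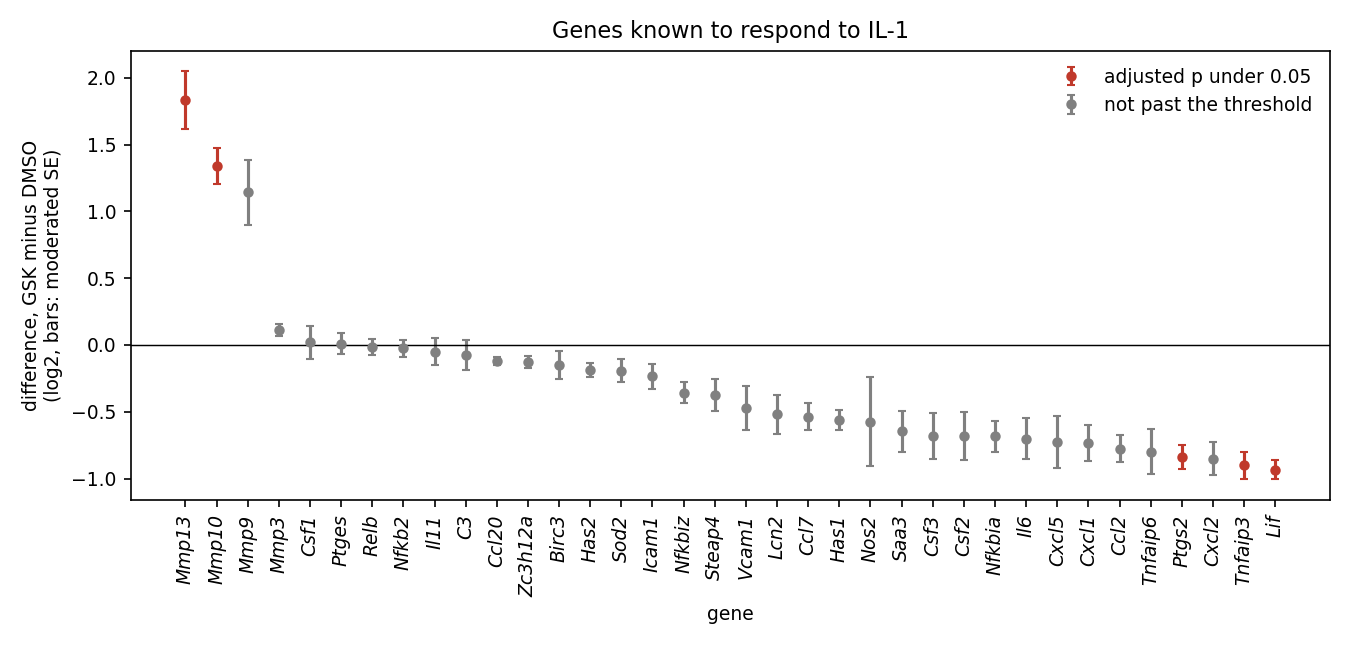
Difference between GSK and DMSO (log2, GSK minus DMSO) of 36 genes known to respond to IL-1, sorted by size, with limma's moderated SE as bars and the 5 called genes in red. Mmp13 and Mmp10 lie at the upper end, at 1.83 and 1.34, and Tnfaip3 and Lif at the lower end, at -0.90 and -0.94.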

How the data were processed

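RNA of 4 fibroblast libraries, 2 from GSK and 2 from DMSO tumours, was measured. Fibroblasts were enriched, per the labels' protocols, by magnetic removal of cells bearing CD45, CD31, CD326 or human CD2, over a pair of columns. The authors deposited normalised values on a log2 scale. That the scale is log2 was read off the values, which run from -1.035 to 20.58 with library medians of 6.15 to 6.16. The submitters' processing notes name the builds GRCh38 and mm10 and the tools Bowtie2, RSEM 1.2.29 and DESeq2 1.12.4, with no role for any. Which transformation and which annotation were used is not given in the sources used here. These values behave like shrunken logarithms, so differences of low genes may be understated, and the depth is unknown.

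Symbols, coordinates and exon lengths came from GENCODE M21 (GRCm38), which matched 22335 of 22456 identifiers, and promoter windows from RefSeq (GRCm38.p6), where all 10 members matched. Tests used limma 3.58.1 in R 4.3.3 on the deposited values without a pseudocount, for genes whose mean reached log2 of 10, with group as the only term, a variance prior following the mean, two-sided p-values and Benjamini-Hochberg adjustment at 0.05. The fit was tested on simulated data. Exon overlap was read from the annotation, and transcripts of the members were aligned to all transcripts with blastn 2.17.0; matches of at least 98% identity over 200 bases were found only with overlapping genes.

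The members, lists and tests were chosen with earlier results of these data known. Named genes were the 10 members, every called gene and up to 4 with the smallest p of each other pathway or response list, and the 5 genes nearest to Il1rl1 and to Il33 whose mean reached log2 of 50, without predicted genes (Gm, Rik or no symbol) and pseudogenes. Named further, after their values were seen, were single markers, receptors below the filter, Traf6, Tollip, Irak4 and Map3k7. Of the response genes, Cxcl1, Cxcl2, Ccl2, Ccl7, Il6, Mmp9, Mmp3 and the 9 with overlapping groups were named in the same way. Alternatives were other filters, scalings and variance priors, leaving out each library, a replicate block, and the longest transcript as length.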

Additional observations from a re-analysis of the deposited data

How the results depend on the processing

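Counts of calls depended on the settings, and the cause was not tested. Over all genes, 41 were called; unfiltered genes gave 1, a higher filter (mean of log2 of 50) 34, quantile scaling 23, median centring 126, an untrended variance prior 11 and a robust prior 138, and 7 to 194 when 1 library was left out (7 without DMSO library 1, 194 without DMSO library 2, 70 without GSK library 1). Calls in the higher direction were 53.7% of all, and 37.1% without DMSO library 2. Replicate numbers are shared between the groups, and same-numbered libraries deviated together (correlation 0.428 over tested genes, 2 pairs). No label says what a number marks, so the fit with the replicate number as a block is given only here. It called 1374 of 14548 genes, 25 response genes lower and 3 higher, and Irak3 lower with an adjusted p of 0.00782 in limma. It also called 3 of the members, Il33, Il1rl1 and Irak2, which is a description only. With the block the SE of Il33 was 0.044, against 0.217 in the main fit, and its difference was -0.577 in both.

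Of the response genes, 3 were called lower and 2 higher. Called lower were 0 without the filter, 6 when medians were centred, 1 under the untrended and 5 under the robust prior, and 0 to 15 with 1 library left out (6 without GSK library 1, 15 without DMSO library 2). Called higher were 0 without the filter, 1 under the higher filter, 1 under quantile scaling, 0 under the untrended and 0 under the robust prior, and 0 to 3 with 1 library left out. Their median difference of -0.423 ran from -0.602 to -0.237 with 1 library left out. As a description, the difference of Il1rl1 lay between -0.828 and -0.754 and that of Il33 between -0.871 and -0.282 over 11 alternatives. With 2 libraries in each group and unknown depth, small differences are not resolved.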
